A study of Rattus norvegicus with 6 samples.

Results

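The genes described here are the ubiquitin conjugating enzymes (E2, gene names beginning Ube2 and a letter) and the ubiquitin specific proteases (Usp, gene names beginning Usp and a number). They were chosen by name from the table of gene counts, where 83 of 33508 genes matched, 32 of them E2 and 51 Usp. The 6 libraries are from cultured bone marrow mesenchymal stem cells (BMSCs) of the rat. In 3 of them (BMSCs-OE-FNDC5) a lentivirus had added extra FNDC5, and in the other 3 (BMSCs-OE-NC) the virus was blank. Per the paper's methods, the cells came from 2-month-old male Sprague–Dawley rats, were passaged 3 times and received virus for 72 h (multiplicity of infection 10). Both groups were then held for 24 h at 1% O2 in medium free of glucose and serum (hypoxia and serum deprivation, H/SD), so every value below is from injured cells and no normoxic library was analysed here. The promoter of the transgene is not given in the sources used here, and the labels say biological replicates without telling if these were different rats, dishes or virus treatments. The p-values then cover only the spread between these libraries, which may be technical.

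Ubiquitin is joined to proteins by a relay of enzymes. An E1 enzyme activates ubiquitin, an E2 carries it as a thioester and, with an E3 ligase, places it on the target, where the type of chain marks the protein for the proteasome, for membrane traffic or for DNA repair. Deubiquitinases remove ubiquitin again, and the Usp proteins are the largest family of them. E2 proteins are small, built around a single conserved domain, whereas Usp proteins are mostly large and carry many extra domains, and the genes differ in length accordingly.

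Total counts were 16640635 to 17229490 in BMSCs-OE-FNDC5 and 17430287 to 17965722 in BMSCs-OE-NC. Fndc5 averaged 4334 CPM (a count scaled to library size) in BMSCs-OE-FNDC5 and 1.06 CPM in BMSCs-OE-NC, so the transgene separated the groups as labelled. All CPM levels carry TMM scaling, which sets libraries to a common level through the bulk of their genes. Of 6 stromal markers tested, Cd44, Thy1 and Eng rose and Itgb1, Pdgfrb and Nt5e fell. Ptprc, which marks all leukocytes, was at 0 in every library, as were 4 of 6 retina genes, which were looked at because the submitters' extraction text speaks of retinas. The summed level of 10 leukocyte markers, 5 of them at 0 throughout, was 198 to 206 CPM in BMSCs-OE-FNDC5 and 98.2 to 104 CPM in BMSCs-OE-NC, almost all of it Cd14, and its part in the results below was not tested. Within a group, pairs of libraries differed by a chi-square per degree of freedom of 3.85 to 7.95, more than counting noise alone.

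Of the 83 genes, 72 had enough counts to be tested, 27 E2 and 45 Usp. In BMSCs-OE-FNDC5, 9 E2 genes rose, 9 fell and the other 9 stayed short of the threshold, whereas 6 Usp genes rose, 32 fell and 7 did not pass (edgeR's quasi-likelihood test, adjusted p under 0.05 by Benjamini-Hochberg over 12104 genes). Among all genes tested, 36.9% rose and 38.8% fell. The share of E2 genes that moved was thus near that background in both directions, at 33.3% up and 33.3% down. The share of Usp genes that fell, 71.1%, stood above it. Past a 2-fold change as well, 3 E2 genes rose and 2 fell, and 1 Usp gene rose and 20 fell, where 9.84% of all genes rose and 17.5% fell. The groups did not overlap in 18 E2 genes, 9 higher and 9 lower in BMSCs-OE-FNDC5, and in 40 Usp genes, 7 higher and 33 lower, where 37.9% of all genes were higher and 40.4% lower without overlap.

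The median log2 fold change (BMSCs-OE-FNDC5 relative to BMSCs-OE-NC) was 0.03 for E2 genes, -0.88 for Usp genes and -0.04 for all genes tested. The E2 median changed sign with the scaling, to -0.08 with upper-quartile scaling and -0.34 with scaling by library size alone, while that of Usp genes was -0.98 and -1.25. These scalings moved the median of all genes to -0.14 and -0.41. The values of 71 of the 72 tested members are shown in the plot of fold changes by family. In the count table, whose rat build is not given in the sources used here, the largest rise and fall of each family lay as whole genes at these places: Ube2c (ENSRNOG00000015131) at chr3:161236898-161241159 on the plus strand, Ube2v2 (ENSRNOG00000001829) at chr11:89557273-89591175 on the plus strand, Usp18 (ENSRNOG00000037198) at chr4:153805993-153834430 on the plus strand and Usp53 (ENSRNOG00000014660) at chr2:227098795-227160379 on the minus strand.

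**Figure D1:**
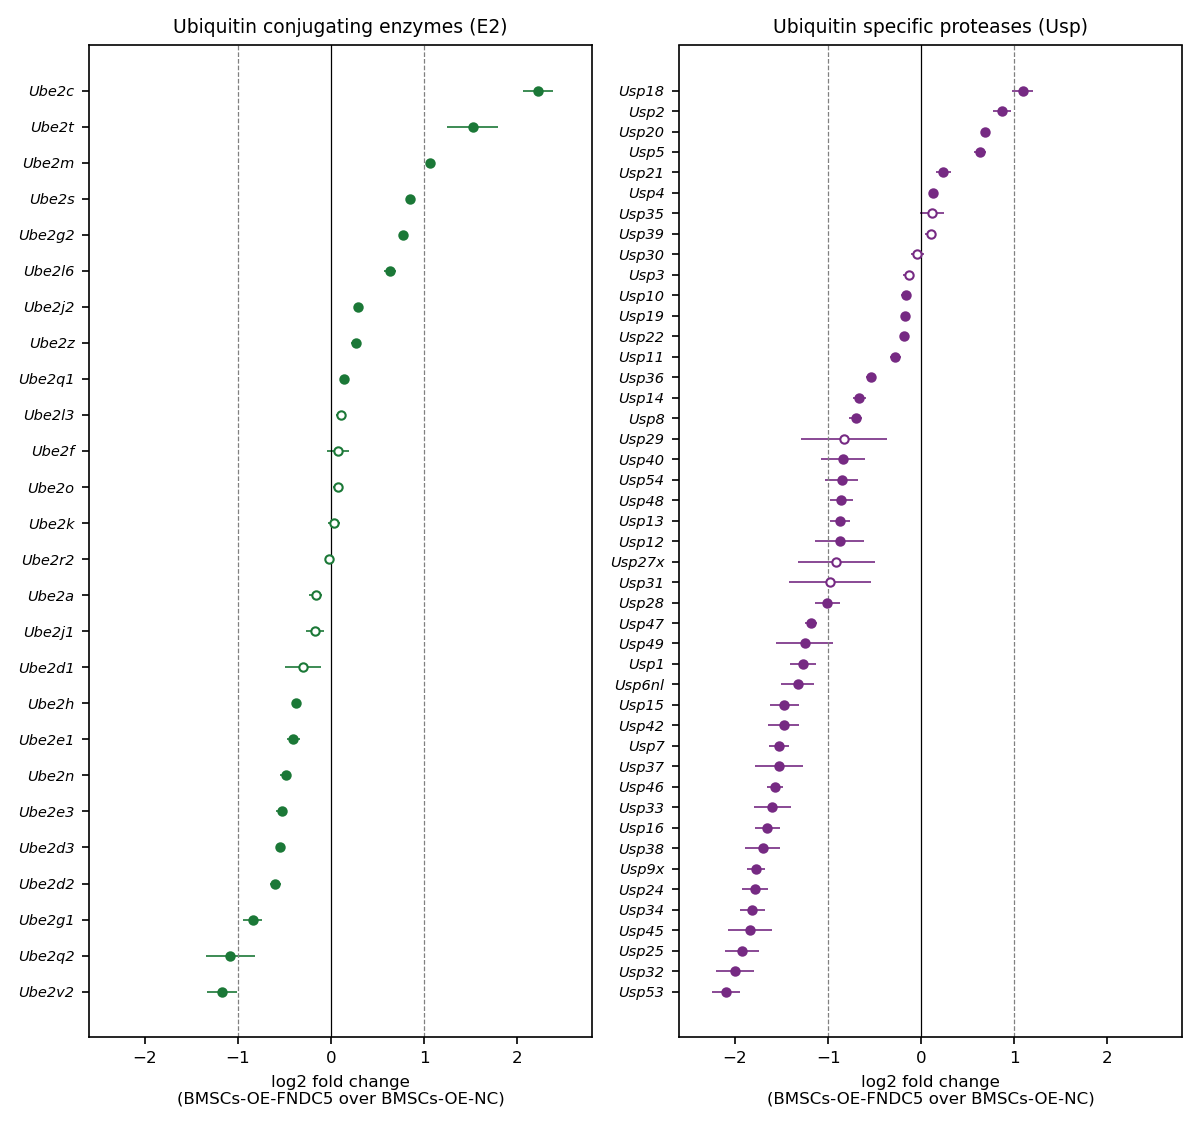
Log2 fold change (BMSCs-OE-FNDC5 relative to BMSCs-OE-NC) of 26 of the 27 tested E2 genes (left) and the 45 tested Usp genes (right), with bars for SE (n = 3 per group). Filled symbols have an adjusted p under 0.05, open ones do not, and dashed lines mark -1 and 1; E2 genes spread to both sides of 0, and 32 Usp genes fell.

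The remaining 11 genes were at or near 0. Ube2d4, Usp26, Usp43, Usp44, Usp51 and Usp9y had no count in any library. Ube2u, Ube2q2l, Ube2ql1 and Ube2b had 0 to 2 counts per library and Usp50 had 0 to 6. Ube2b encodes a RAD6 enzyme nearly identical in protein to Ube2a, which had 412 to 492 counts in BMSCs-OE-FNDC5 and 643 to 731 in BMSCs-OE-NC. How reads that match several genes were counted is not given in the sources used here, so the values of Ube2a and Ube2b, of Ube2d1, Ube2d2 and Ube2d3, and of other members with close copies are uncertain.

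Both E2 genes of mitosis and that of the Fanconi pathway rose. Ube2c, which starts ubiquitin chains for the anaphase promoting complex (APC/C), had 13.8, 10.4 and 12.0 CPM in BMSCs-OE-FNDC5, against 2.51, 2.34 and 2.88 CPM in BMSCs-OE-NC. All 3 libraries of BMSCs-OE-FNDC5 lay above all 3 of BMSCs-OE-NC, and log2 fold change reached 2.22 (SE 0.16, edgeR adjusted p = 2.3e-07). Groups that do not overlap were a condition for giving a member library by library, except for the most abundant of each family. Ube2s, which extends those chains, had 401, 398 and 388 CPM in BMSCs-OE-FNDC5 and 220, 222 and 216 CPM in BMSCs-OE-NC, or 0.85 on the log2 scale (SE 0.03, edgeR adjusted p = 2.7e-10). The groups were again apart, and per unit of length Ube2s was the most abundant E2, with a mean of 418 FPKM (the count divided by gene length and by a constant per library) in BMSCs-OE-FNDC5 and 228 FPKM in BMSCs-OE-NC. Ube2t, the E2 of the Fanconi anaemia pathway, stood lower, at 3.57, 3.00 and 2.05 CPM in BMSCs-OE-FNDC5 and 0.933, 0.997 and 1.06 CPM in BMSCs-OE-NC (log2 fold change 1.52, SE 0.27, edgeR adjusted p = 3.9e-04). That rested on 31 to 54 counts per library in BMSCs-OE-FNDC5 and 19 to 21 in BMSCs-OE-NC.

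Some markers of proliferation rose with these enzymes. Of 10 such genes, 6 rose, including Cdk1 (log2 fold change 1.59), Birc5 (2.53) and Plk1 (1.60), where 36.9% of all genes rose. The other 4, among them Mki67 (-0.33) and Top2a (-0.03), lay below 0 and did not pass. The 6 were 873 to 2363 bases long and the 4 were 4493 to 9880, and the part of gene length in this split was not tested. The summed level of the 10 genes was 85.5 to 94.5 CPM in BMSCs-OE-FNDC5 and 35.4 to 36.7 CPM in BMSCs-OE-NC, and its part in the values of Ube2c, Ube2s and Ube2t was not tested. In these bulk samples, a change in the number of cells of a kind and a change in RNA per cell cannot be told apart. Of the 5 Fanconi partners of Ube2t tested, 0 were called up. The ligase Fancl (-0.48) and the sliding clamp Pcna (-0.28) fell. Fancd2 (0.46), Fanci (0.29) and Fanca (0.65) lay above 0 but did not pass. Counts per library were few, at 25 to 29 for Fancd2 and 19 to 48 for Fanca, so a rise may have been missed.

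E2 enzymes for ubiquitin-like proteins also moved upward where they passed, with 3 of 5 up and 0 down, where 36.9% of all genes rose and 38.8% fell. Ube2m, which loads NEDD8 onto cullins, had 547, 530 and 524 CPM in BMSCs-OE-FNDC5 and 254, 261 and 252 CPM in BMSCs-OE-NC, with no overlap (log2 fold change 1.06, SE 0.03, edgeR adjusted p = 6.4e-11). Ube2l6, the E2 for the interferon-induced modifier ISG15, rose (0.63), as did Ube2z, which works with the E1 enzyme UBA6 (0.27). Ube2f, the other NEDD8 enzyme (0.07), did not pass. On library size alone, Ube2m and Ube2l6 still rose, Ube2z did not pass, and Ube2f fell. With the trend of counts with gene length removed, 3 of the 5 rose and 2 fell, Ube2f among them (-0.52).

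Enzymes of degradation at the endoplasmic reticulum and of K48-linked chains were divided. Ube2g2, a central E2 of that pathway, stood at 254 CPM in all 3 libraries of BMSCs-OE-FNDC5 and at 147, 148 and 151 CPM in BMSCs-OE-NC (log2 fold change 0.77, SE 0.03, edgeR adjusted p = 6.9e-10). Its relative Ube2g1 went the opposite way, with 18.2, 16.4 and 21.3 CPM in BMSCs-OE-FNDC5 and 32.4, 32.0 and 35.9 CPM in BMSCs-OE-NC (log2 fold change -0.84, SE 0.10, edgeR adjusted p = 1.1e-05). Both genes have nearly the same length, 1918 bases for Ube2g2 and 1945 for Ube2g1. Of the membrane-anchored pair, Ube2j2 rose (0.29) and Ube2j1 did not pass (-0.17). Ube2h fell (-0.37), and Ube2k (0.03) and Ube2r2, a partner of SCF ligases (-0.02), did not pass. Of these 7 genes 2 rose and 2 fell, where 36.9% of all genes rose and 38.8% fell. With scaling by library size alone 1 rose and 5 fell. Ube2j2 was then not called, and Ube2j1, Ube2k and Ube2r2 fell.

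E2 enzymes that serve many E3 ligases fell or did not pass. Of 6 tested, 0 rose and 4 fell, where 36.9% of all genes rose and 38.8% fell. Ube2d3 had 111, 117 and 117 CPM in BMSCs-OE-FNDC5 and 169, 170 and 166 CPM in BMSCs-OE-NC (log2 fold change -0.55, SE 0.03, edgeR adjusted p = 4.8e-08). Ube2d2 had 38.0, 38.7 and 35.1 CPM in BMSCs-OE-FNDC5 and 60.6, 54.6 and 54.2 CPM in BMSCs-OE-NC (log2 fold change -0.60, SE 0.06, edgeR adjusted p = 3.6e-06). For both, every library of BMSCs-OE-FNDC5 lay below every library of BMSCs-OE-NC. Ube2e3 (-0.53) and Ube2e1 (-0.41) fell too, while Ube2d1 (-0.30) and Ube2l3, which serves HECT and RBR ligases (0.10), did not pass. With scaling by library size alone all 6 fell, and Ube2l3 was called up with the length trend removed (0.33) and with the replicate number as a block.

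Among the E2 enzymes of DNA damage tolerance, the pair that makes K63-linked chains fell on both sides. Ube2v2, a partner without a catalytic cysteine, had 5.75, 4.71 and 5.43 CPM in BMSCs-OE-FNDC5 and 13.6, 9.57 and 12.6 CPM in BMSCs-OE-NC (log2 fold change -1.17, SE 0.16, edgeR adjusted p = 4.6e-05), the largest fall among E2 genes. Its catalytic partner Ube2n fell as well (-0.49), and Ube2a did not pass (-0.17). Ube2q2, a little-studied E2, had 4.43, 2.11 and 2.12 CPM in BMSCs-OE-FNDC5 and 5.85, 5.98 and 6.57 CPM in BMSCs-OE-NC (log2 fold change -1.08, SE 0.26, edgeR adjusted p = 0.0030). BMSCs-OE-FNDC5 replicate 1 was highest of its group, and without it the log2 fold change was -1.53. Ube2q1 rose slightly (0.14) but fell with scaling by library size alone, and Ube2o, which joins E2 and E3 activity in a single large protein, did not pass (0.07).

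**Figure D2:**
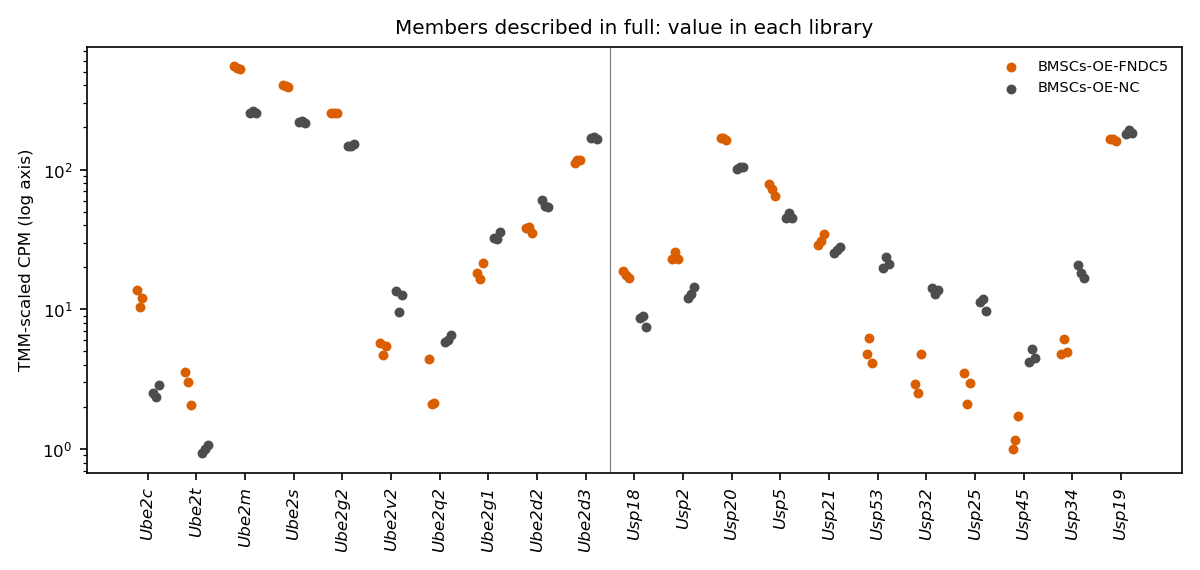
TMM-scaled CPM on a log axis in each of the 6 libraries for the 10 E2 genes (left of the line) and 11 Usp genes (right of it) given in full, with BMSCs-OE-FNDC5 in orange and BMSCs-OE-NC in grey. For each gene the 3 libraries of one group lie apart from the 3 of the other, which was a condition of choice for all but Usp19.

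The 6 Usp genes that rose were led by Usp18, which removes ISG15 and restrains interferon signalling. It had 18.7, 17.7 and 16.7 CPM in BMSCs-OE-FNDC5 and 8.60, 8.97 and 7.43 CPM in BMSCs-OE-NC (log2 fold change 1.09, SE 0.11, edgeR adjusted p = 4.7e-06). Isg15 itself averaged 2.88 CPM in BMSCs-OE-FNDC5 and 1.75 CPM in BMSCs-OE-NC and did not pass (0.71, edgeR adjusted p = 0.059). Usp2, a circadian gene whose protein stabilises cyclin D1, had 23.0, 25.8 and 23.1 CPM in BMSCs-OE-FNDC5 and 12.1, 13.0 and 14.4 CPM in BMSCs-OE-NC (0.86, SE 0.10, edgeR adjusted p = 9.7e-06). Usp20, which acts on receptors that are recycled, rose although its transcript is long at 5649 bases, with 167, 169 and 162 CPM in BMSCs-OE-FNDC5 and 100.3, 104 and 105 CPM in BMSCs-OE-NC (0.69, SE 0.03, edgeR adjusted p = 9.3e-09). In all 3 genes the groups did not overlap, as their choice required.

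Usp5, which takes apart free ubiquitin chains, had 78.2, 72.2 and 64.4 CPM in BMSCs-OE-FNDC5 and 45.0, 48.5 and 45.0 CPM in BMSCs-OE-NC (log2 fold change 0.63, SE 0.07, edgeR adjusted p = 5.8e-06). Usp21, an H2A deubiquitinase, had 28.8, 31.0 and 34.4 CPM in BMSCs-OE-FNDC5 and 25.4, 26.7 and 27.8 CPM in BMSCs-OE-NC (0.24, SE 0.08, edgeR adjusted p = 0.016). The Usp21 rise was small and was not called with upper-quartile scaling (edgeR adjusted p = 0.14), without BMSCs-OE-FNDC5 replicate 3 (edgeR adjusted p = 0.067) or without BMSCs-OE-NC replicate 1 (edgeR adjusted p = 0.064). With scaling by library size alone its log2 fold change was -0.13. Usp4 rose by 0.13 on the log2 scale and fell with that scaling.

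The 5 largest falls were in long genes of low abundance. Usp53, associated with tight junctions, had 4.76, 6.27 and 4.11 CPM in BMSCs-OE-FNDC5 and 19.9, 23.7 and 21.2 CPM in BMSCs-OE-NC (log2 fold change -2.10, SE 0.15, edgeR adjusted p = 2.1e-07). Usp32, a protein of endosomes and the Golgi, had 2.91, 2.52 and 4.77 CPM in BMSCs-OE-FNDC5 and 14.2, 12.8 and 13.8 CPM in BMSCs-OE-NC (-2.0, SE 0.20, edgeR adjusted p = 4.0e-06). Usp25, which has been linked to inflammatory signalling, had 3.51, 2.11 and 2.98 CPM in BMSCs-OE-FNDC5 and 11.2, 11.9 and 9.65 CPM in BMSCs-OE-NC (-1.92, SE 0.19, edgeR adjusted p = 2.6e-06). Usp53 was 4.28-fold, Usp32 3.99-fold and Usp25 3.79-fold lower in BMSCs-OE-FNDC5. Usp45, which acts in DNA repair, had 0.992, 1.16 and 1.72 CPM in BMSCs-OE-FNDC5 and 4.18, 5.23 and 4.50 CPM in BMSCs-OE-NC (-1.84, SE 0.24, edgeR adjusted p = 2.8e-05). Usp34, which acts on axin in Wnt signalling, had 4.76, 6.14 and 4.97 CPM in BMSCs-OE-FNDC5 and 20.8, 18.1 and 16.9 CPM in BMSCs-OE-NC (-1.81, SE 0.14, edgeR adjusted p = 3.1e-07). No library of BMSCs-OE-FNDC5 reached the lowest library of BMSCs-OE-NC in any of the 5, as their choice required.

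The list of Usp genes for DNA damage and the cell cycle had 8 members tested, and 8 fell, where 38.8% of all genes did. The list is long in sequence (median 5083 bases), and with the trend with gene length removed 4 of the 8 fell, 3 did not pass (Usp13, Usp37 and Usp48) and Usp11 rose. Usp2 and Usp45, which also have such roles, stood outside the list, and Usp2 rose. The members included Usp7, which deubiquitinates p53 and its ligase MDM2 (-1.53), Usp1, which acts on FANCD2 and PCNA (-1.27), Usp37, which acts on cyclin A (-1.53), Usp47 (-1.18) and Usp28, a stabiliser of MYC (-1.01). Usp13 (-0.87), Usp48 (-0.86) and Usp11 (-0.28) fell less. The WDR48 partners Usp1, Usp12 (-0.88) and Usp46 (-1.57) fell together, and so did Wdr48, the subunit that activates them (-0.43). Ube2t and Usp1, which place and remove ubiquitin on FANCD2, thus moved in opposite directions.

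Of the 8 Usp genes of histones and chromatin, 5 fell, 1 rose and 2 did not pass, where 38.8% of all genes fell and 36.9% rose. With the length trend removed 3 fell and 1 rose, and the shares of all genes in that fit are not given here. Usp16, an H2A deubiquitinase (-1.65), Usp42 (-1.48) and Usp49 (-1.25) fell more than 2-fold, and nucleolar Usp36 (-0.54) and Usp22 of the SAGA complex (-0.18) fell less. Usp3 (-0.14) and Usp27x (-0.91, with 11 to 36 counts in BMSCs-OE-FNDC5 and 39 to 62 in BMSCs-OE-NC) did not pass.

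In receptor traffic and signalling, 10 of 13 Usp genes fell and 3 rose (Usp2, Usp20 and Usp4), where 38.8% of all genes fell and 36.9% rose. With the length trend removed 8 fell and 5 rose, Usp10 and Usp19 having turned to rises. Usp9x, whose 12259 bases make it the longest member, fell by 1.78 on the log2 scale, and Usp33, a relative of Usp20, fell by 1.60. Usp20 and Usp33 thus lay on opposite sides of 0. Usp15 (-1.47), Usp6nl, which despite its name encodes a GTPase activating protein for RAB5 (-1.33), and Usp8 of endosomal sorting (-0.70) fell too. Usp19, an enzyme with a form anchored in the endoplasmic reticulum, was the most abundant Usp per length, at a mean of 34.8 FPKM in BMSCs-OE-FNDC5 and 38.6 FPKM in BMSCs-OE-NC. Its CPM values were 164, 166 and 161 in BMSCs-OE-FNDC5 and 180, 192 and 183 in BMSCs-OE-NC (-0.18, SE 0.03, edgeR adjusted p = 6.0e-04).

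Usp14, the deubiquitinase bound to the proteasome, fell (-0.67), as did Usp24 (-1.78) and Usp40 (-0.84). Of 6 Usp genes linked to autophagy and mitochondria, 5 fell (Usp8, Usp10, Usp13, Usp14 and Usp33), and Usp30 of the mitochondrial outer membrane did not pass (-0.04), where 38.8% of all genes fell. With the length trend removed 3 fell, Usp13 did not pass, and Usp10 and Usp30 rose. Usp10 fell by 0.16 on the log2 scale, which DESeq2 did not call (adjusted p = 0.153). Usp38 (-1.70) and Usp54 (-0.85) fell, whereas Usp39, a splicing factor that lacks protease activity (0.10), Usp35 (0.11), Usp31 (-0.98) and Usp29 (-0.83) did not pass. The last of these had 7 to 10 counts in BMSCs-OE-FNDC5 and 12 to 32 in BMSCs-OE-NC.

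Levels and shifts were then compared between the families. The E2 genes had a median of 26.8 FPKM and the Usp genes one of 2.50 FPKM, means over the 6 libraries. Summed over the tested genes, E2 levels were 1726, 1717 and 1705 FPKM in BMSCs-OE-FNDC5 and 1374, 1376 and 1358 FPKM in BMSCs-OE-NC. Ube2s, Ube2m and Ube2g2 held 47.6% to 48.4% of that sum in BMSCs-OE-FNDC5 and 31.4% to 31.9% in BMSCs-OE-NC. These 3 genes were chosen after their values were seen, as the most abundant E2 genes among those that rose. Leaving them out therefore had to lower the sum of BMSCs-OE-FNDC5 more than that of BMSCs-OE-NC. Without them the sum was 891 to 894 FPKM in BMSCs-OE-FNDC5 and 932 to 942 FPKM in BMSCs-OE-NC. The constants in the deposited FPKM lie near the TMM sizes, and with libraries scaled by total counts instead, an alternative chosen after seeing the data, the E2 sum turned round, at 1492 to 1519 in BMSCs-OE-FNDC5 and 1574 to 1592 in BMSCs-OE-NC. Summed Usp levels were 283, 286 and 280 FPKM in BMSCs-OE-FNDC5 and 317, 323 and 318 FPKM in BMSCs-OE-NC, and were lower by total counts too, at 245 to 252 in BMSCs-OE-FNDC5 and 365 to 373 in BMSCs-OE-NC.

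**Figure D3:**
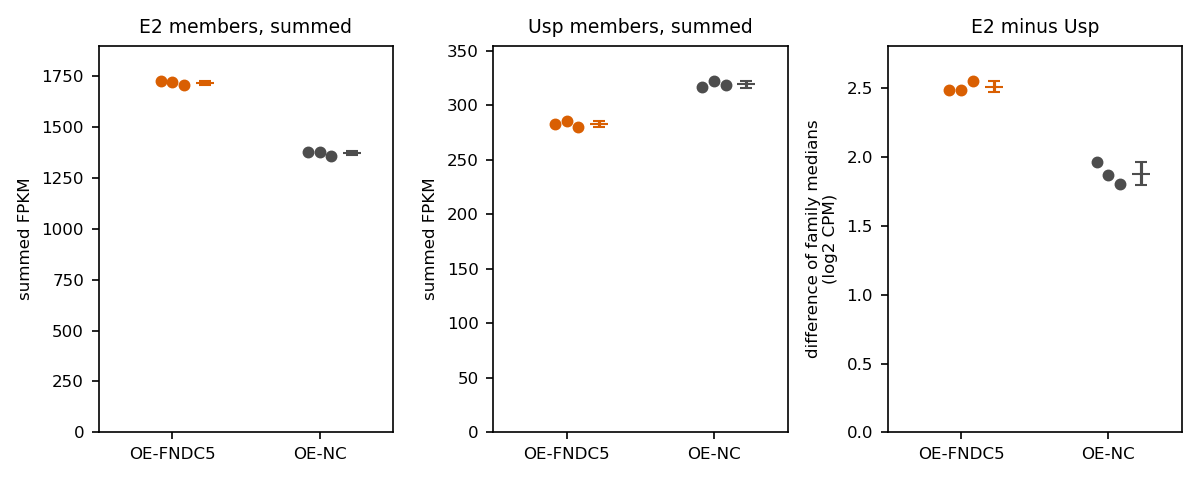
Summed FPKM of the tested E2 genes (left) and Usp genes (middle), and the median log2 CPM of E2 genes minus that of Usp genes (right), in each library, with the mean and SD of 3 libraries beside the points. The E2 sum is higher in BMSCs-OE-FNDC5 (lower when scaled by total counts) and the Usp sum lower, and the difference of medians is 2.49 to 2.55 in BMSCs-OE-FNDC5 and 1.80 to 1.97 in BMSCs-OE-NC.

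The gap between the family medians, on log2(CPM + 0.1), was 2.49, 2.49 and 2.55 in BMSCs-OE-FNDC5 and 1.97, 1.87 and 1.80 in BMSCs-OE-NC. The gap was thus wider in each library of BMSCs-OE-FNDC5 than in any of BMSCs-OE-NC. Median log2 fold change of E2 genes exceeded that of Usp genes by 0.90. Genes of a family are not replicates, so the difference is given as a description with no p.

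Gene length differed between the families and moved with the fold change in the whole table. Tested E2 genes had a median length of 1669 bases and reached 4971 bases, and tested Usp genes were 1065 to 12259 bases long (median 4397). Of the 45 Usp genes 20 lay in the eighth of all tested genes with the longest transcripts, 4723 bases or more, where all genes together had a median of -0.84 and 73.4% fell. Of the 27 E2 genes, 17 lay in the 3 shortest eighths, up to 1835 bases, with medians of 0.65, 0.36 and 0.25 for all genes.

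**Figure D4:**
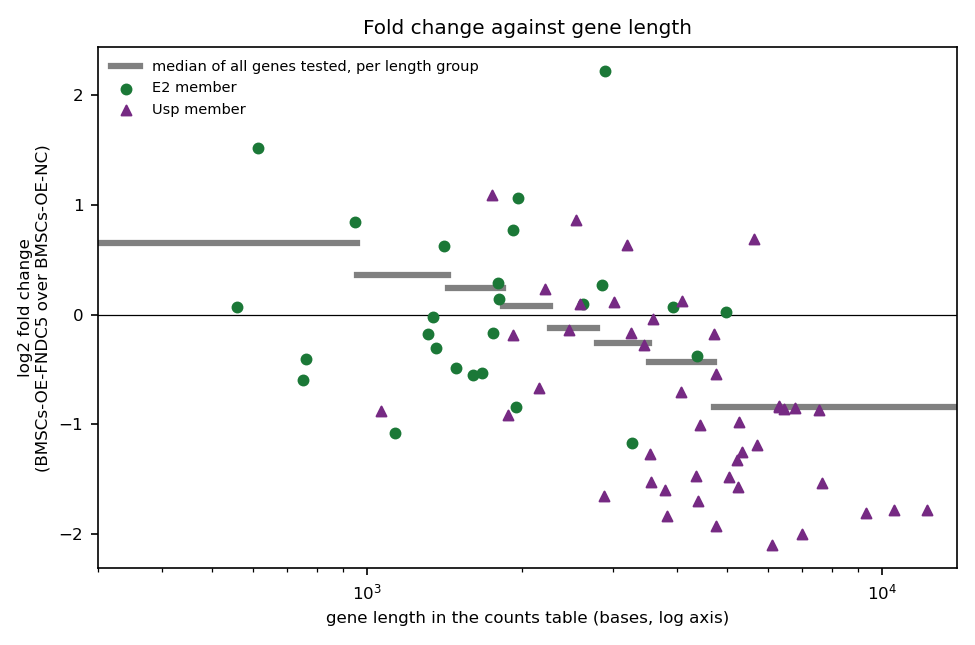
Log2 fold change (BMSCs-OE-FNDC5 relative to BMSCs-OE-NC) against gene length in bases (log axis) for 26 tested E2 genes (circles) and 45 Usp genes (triangles). Grey bars give the median of all genes tested in 8 groups ordered by length, which passes from 0.65 in the shortest to -0.84 in the longest; the bars of the first and last group are clipped at the axis limits.

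Families were also set beside all genes of like length. Below 1500 bases, the 12 E2 genes had a median log2 fold change of -0.10, with 3 up and 4 down, against 0.50 for all 3273 genes of that length. Between 1500 and 2500 bases the median was -0.01 for 8 E2 genes, -0.16 for 6 Usp genes and 0.09 for all genes. Between 2500 and 4000 bases it was 0.10 for 5 E2 genes, -0.22 for 12 Usp genes and -0.24 for all genes. At 4000 bases or more, 26 Usp genes had a median of -1.22, with 22 down and 2 up, against -0.71 for all genes, while the 2 E2 genes were Ube2k (0.03) and Ube2h (-0.37). Of the E2 genes, 15 of 27 lay below the median of their length eighth, and of the Usp genes 32 of 45 did.

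Within the families, the relation of fold change to length was described by rank. Spearman's rho between length and log2 fold change was 0.07 over 27 E2 genes, -0.51 over 45 Usp genes and -0.44 over all genes tested. With mean FPKM it was 0.23 for E2 genes, 0.68 for Usp genes and 0.42 for all genes. These are descriptions across genes of the same 6 libraries, and FPKM is itself divided by length.

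When each library's trend of counts with gene length was removed in the fit, 12 E2 genes rose and 14 fell, and 12 Usp genes rose and 22 fell. The shares of all genes that rose and fell in this fit are not given here, so these counts have no background beside them. The medians became -0.26 for E2 and -0.43 for Usp genes, a difference of 0.17. Of the 32 Usp genes that fell before, 22 still fell, 7 did not pass and 3 rose (Usp10, Usp11 and Usp19). Of the 9 E2 genes that fell, 8 still fell and Ube2h rose, and of the 9 that rose 8 still rose. The 5 largest Usp falls remained between -0.78 (Usp34) and -1.36 (Usp45), and Usp7 stood at -1.09 and Usp16 at -1.35. Ube2c (2.53), Ube2m (1.06), Usp20 (1.43), Usp2 (1.07) and Usp18 (0.99) stayed up. Whether the trend with length arose in the cells or in the libraries was not tested.

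**Figure D5:**
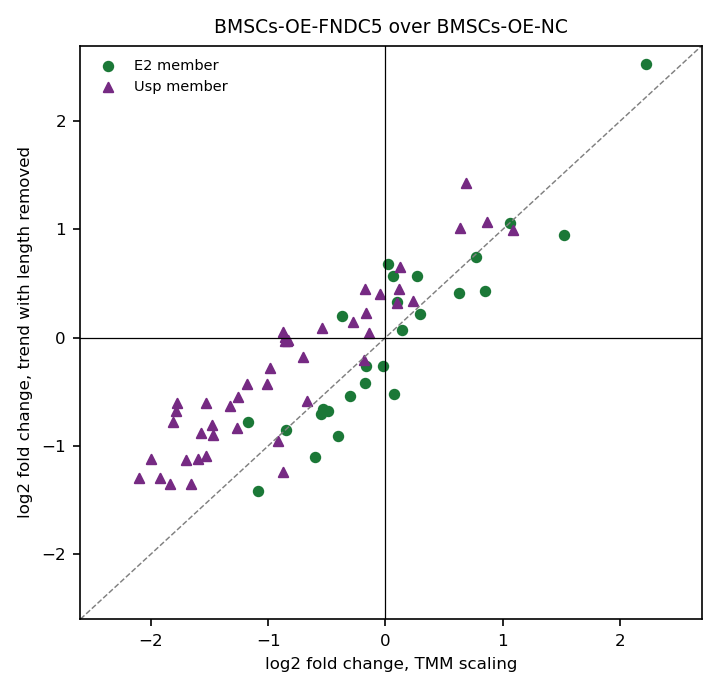
Log2 fold change (BMSCs-OE-FNDC5 relative to BMSCs-OE-NC) of 26 tested E2 genes (circles) and 45 Usp genes (triangles) with TMM scaling (x axis) and with the trend with gene length removed (y axis); the dashed line marks equal values. Most Usp genes lie above the line and 22 of 32 falls were kept, whereas the shorter E2 genes lie below it.

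Promoter sequences were examined because Sp1, a factor that binds GC boxes and was also studied in these cells, had a transcript that averaged 10.9 CPM in BMSCs-OE-FNDC5 and 30.3 CPM in BMSCs-OE-NC (log2 fold change -1.48, edgeR adjusted p = 6.0e-08). RefSeq promoters of build GRCr8, from 250 bases before to 50 after the start, were matched by symbol for 67 of 83 members, of which 65 had a single entry. The motifs searched on both strands were the GC box, GGGCGG or its reverse complement, and the CCAAT box, spelled as named or as its reverse complement, with overlapping matches counted. Shown are the largest rise and the largest fall of each family with an entry, and Usp25, which held the most GC boxes; capitals mark both motifs.
Ube2t: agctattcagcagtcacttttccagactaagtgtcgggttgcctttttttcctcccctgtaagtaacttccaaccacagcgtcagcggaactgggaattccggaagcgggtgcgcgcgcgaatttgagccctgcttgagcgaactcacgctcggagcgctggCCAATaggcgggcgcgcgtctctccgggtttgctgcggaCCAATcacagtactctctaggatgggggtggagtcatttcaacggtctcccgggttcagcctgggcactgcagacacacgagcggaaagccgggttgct
Ube2q2: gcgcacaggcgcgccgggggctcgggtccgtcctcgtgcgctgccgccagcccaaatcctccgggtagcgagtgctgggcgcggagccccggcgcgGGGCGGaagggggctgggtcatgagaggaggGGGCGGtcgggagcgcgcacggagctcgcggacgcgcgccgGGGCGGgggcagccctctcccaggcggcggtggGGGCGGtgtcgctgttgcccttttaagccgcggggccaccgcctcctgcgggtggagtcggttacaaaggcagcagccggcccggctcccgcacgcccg
Usp2: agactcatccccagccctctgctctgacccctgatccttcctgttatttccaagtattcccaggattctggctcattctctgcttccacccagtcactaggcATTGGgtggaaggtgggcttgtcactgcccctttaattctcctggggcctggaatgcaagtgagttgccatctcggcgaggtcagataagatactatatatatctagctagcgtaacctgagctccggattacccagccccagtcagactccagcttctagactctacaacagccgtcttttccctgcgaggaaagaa
Usp53: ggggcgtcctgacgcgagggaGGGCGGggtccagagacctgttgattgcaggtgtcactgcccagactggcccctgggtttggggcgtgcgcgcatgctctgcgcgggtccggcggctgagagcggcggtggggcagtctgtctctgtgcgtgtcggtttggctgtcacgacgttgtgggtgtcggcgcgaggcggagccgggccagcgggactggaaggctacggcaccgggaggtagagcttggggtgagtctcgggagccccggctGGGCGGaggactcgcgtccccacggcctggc
Usp25: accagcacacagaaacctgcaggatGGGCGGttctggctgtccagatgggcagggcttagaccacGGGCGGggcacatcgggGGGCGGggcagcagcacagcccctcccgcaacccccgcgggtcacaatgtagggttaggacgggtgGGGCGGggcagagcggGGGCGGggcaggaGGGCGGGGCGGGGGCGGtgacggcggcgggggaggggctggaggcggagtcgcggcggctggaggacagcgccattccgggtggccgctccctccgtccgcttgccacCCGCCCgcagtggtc

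Their positions are chr13:48954916-48955215 (plus strand) for Ube2t, chr8:64414824-64415123 (plus) for Ube2q2, chr8:53310620-53310919 (plus) for Usp2, chr2:213805259-213805558 (minus) for Usp53 and chr11:29090403-29090702 (plus) for Usp25. Ube2t, which rose, had 0 GC boxes and 2 CCAAT boxes, and Usp2, which also rose, had 0 and 1. Ube2q2, Usp53 and Usp25, which fell, had 4, 2 and 9 GC boxes and 0 CCAAT boxes. A GC box was present in 21 of 26 Usp promoters of genes that fell (80.8%), in 4 of 5 that rose and in 3 of 7 that did not pass. Among E2 genes it was present in 5 of 7 that fell, 4 of 8 that rose and 5 of 6 that did not pass.

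The GC box was common in expressed genes in general. It was found in 33.1% of all promoters in the table, in 66.4% of promoters of all genes that rose and in 65.8% of those of all genes that fell. A CCAAT box was found in 37.5% of all promoters, in 39.6% of those of all genes that rose and in 36.9% of those that fell. Among Usp genes it was found in 4 of 26 that fell, 3 of 5 that rose and 2 of 7 that did not pass. For E2 genes the counts were 1 of 7 that fell, 4 of 8 that rose and 2 of 6 that did not pass. A match of these letters is a description of the window and not a binding site.

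Other genes of the pathway moved in both directions. Of 8 ubiquitin-like modifiers tested, 4 rose and 2 fell, with Nedd8 at 0.65, Urm1 at 0.93 and Sumo3 at 0.53. Of 9 E1 genes, 3 rose and 5 fell, beside 36.9% up and 38.8% down among all genes. Uba1, the main E1 of ubiquitin, was close to equal with 267 CPM in BMSCs-OE-FNDC5 and 292 CPM in BMSCs-OE-NC (-0.13, edgeR adjusted p = 0.0016), and Uba6 fell (-2.20). The NEDD8 E1 subunits Uba3 (-1.08) and Nae1 (-0.59) fell, opposite to Ube2m and Nedd8.

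Other E2 genes, outside the name rule, were also divided, with 3 of 7 up and 3 down, beside 36.9% up and 38.8% down among all genes. Cdc34, an E2 of SCF ligases, had the largest rise (1.26), and Birc6, a giant protein with an E2 domain, the largest fall (-2.15). Other deubiquitinase families and SUMO or NEDD8 proteases had 37 tested entries. Of these, 10 rose, 21 fell and 6 did not pass, where 36.9% of all genes rose and 38.8% fell. Their median was -0.68 at a median length of 2149 bases. Uchl3 had 2 of the 6 entries, and their counts spread widely within each group (18 to 220 and 1 to 45 in BMSCs-OE-FNDC5). Josd2 (0.91) and Otub1 (0.77) were the clearest rises by p, and Senp6 (-1.71), Otud7b (-0.77) and Brcc3 (-1.53) the clearest falls. Psmd14, the deubiquitinase of the proteasome lid, fell by 0.11 on the log2 scale. Of 8 cofactors of Usp enzymes, 6 fell and 2 rose, where 38.8% of all genes fell and 36.9% rose. The rises were Eny2 (0.60) and Sgf29 (0.61) of the SAGA complex, while Atxn7 (-1.31) and Atxn7l3 (-0.20) of the same complex fell.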

How the data were processed

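RNA-seq was analysed in 3 BMSCs-OE-FNDC5 and 3 BMSCs-OE-NC libraries. The deposited count table holds raw counts per gene, and the deposited FPKM table holds the authors' values, a count divided by gene length and by 1 constant per library. The submitters list HTSeq 0.6.0, HISAT2 2.1.0, Bowtie2 2.2.3, CASAVA, DESeq2 and TopHat2, with no role, strand setting or rule for shared reads; they name build mm10, but 32883 of 33508 identifiers are rat Ensembl ones.

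Counts were fitted over all genes with edgeR 4.0.16 (R 4.3.3): filterByExpr (minimum count 10, minimum total 15), TMM, glmQLFit and glmQLFTest, condition as the only term, Benjamini-Hochberg over 12104 genes. With 3 against 3, an exact permutation test of 1 gene cannot go below p = 0.1. Values in each library, SE and p were given, per family, for the 5 largest rises and falls among called members whose groups did not overlap and for the member of highest FPKM; list genes were up to 3 by smallest p, plus further ones chosen after their values were seen. Members and lists were chosen with earlier results of these data known. Alternatives were DESeq2 1.42.0, RLE, upper-quartile or library-size scaling, 2 other filters, limma-voom and limma-trend on log2(FPKM + 1) or log2(FPKM + 0.1) (limma 3.58.1), a fold threshold, a length offset (lowess, span 0.3), a replicate block and each library left out. The edgeR, DESeq2 and limma-voom fits were run on simulated counts with few genes changed and no trend with gene length. These data differ in both, so that run does not show how the fits perform on them. Figures used Python 3.11.15 and matplotlib 3.10.9. Intervals of counting error were not computed. The values of some genes are not reported here, though counts and medians cover them.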

Additional observations from a re-analysis of the deposited data

How the results depend on the processing

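In every alternative run more Usp genes fell than rose, while the balance of E2 genes and the size of the counts depended on threshold and scaling. With the fold threshold added, 3 E2 genes rose and 2 fell, and 1 Usp gene rose and 20 fell. Scaled by library size only, 6 E2 genes rose and 19 fell, and 4 Usp genes rose and 39 fell. The median of E2 genes was then -0.34, and Usp21 stood at -0.13. That scaling lowered the median of all genes too, as given above, so falls under it include this common shift. The shares of all genes that rose and fell with it are not given here. The E2 median was also below 0 with upper-quartile scaling (-0.078), with at least 10 counts in every library (-0.0046, for the same number of E2 genes) and without BMSCs-OE-NC replicate 3 (-0.020), the lowest of the fits that left out 1 library, the highest being 0.038. With the length trend removed, 14 E2 genes fell, 12 Usp genes rose, the E2 median was -0.26, that of all genes 0.090, the difference between the medians was 0.17 and Usp19 was at 0.45. That difference was 0.57 on log2(FPKM + 1), a scale that compresses low genes. Across the fits that left out 1 library, it ranged from 0.91 to 1.02, E2 genes up from 8 to 9 and down from 9 to 11, and Usp genes up from 4 to 6 and down from 31 to 34.

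Across all genes tested, same-numbered libraries of the 2 groups did not deviate together (Pearson's r -0.01 to 0.02, and -0.03 to 0.04 for other pairings). Some single genes did, among them both entries of Uchl3. In order of replicate, the first had 18, 20 and 220 counts in BMSCs-OE-FNDC5 and 20, 16 and 135 in BMSCs-OE-NC. The second had 45, 23 and 1 in BMSCs-OE-FNDC5 and 162, 10 and 0 in BMSCs-OE-NC. Whether the replicate numbers mark a shared source was not tested. With a replicate block, 10 E2 genes rose and 10 fell, and 6 Usp genes rose and 33 fell, and the shares of all genes are not given here. Of 378 values of named members over all alternatives, 363 kept direction and call, 13 kept only the direction and 2 reversed, Usp21 and Usp19 as above. Nearly all of these members were chosen for large called changes without overlap in the main fit, so much of that stability was built in. The count leaves out Ube2q1, Usp4, Ube2h, Usp10 and Usp11, whose calls reversed in an alternative, and does not describe the families. The largest SE were those of Usp29, Usp31, Usp27x and Usp49 (0.47 to 0.31), all with few counts.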

Other observations

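Groups of E3 ligase subunits that work with the E2 enzymes above moved in both directions. Of 16 genes of the APC/C and its activators, which use Ube2c and Ube2s, 8 rose, 6 fell and 2 did not pass (median log2 fold change 0.21), where 36.9% of all genes rose and 38.8% fell. The activator Cdc20 rose (1.97), averaging 17.8 ± 1.75 CPM in BMSCs-OE-FNDC5 and 4.53 ± 0.543 CPM in BMSCs-OE-NC (SD, n = 3 each), and the RING subunit Anapc11, which binds the E2, rose as well (1.00). The scaffold and arm subunits were divided. Cdc27 (-1.28), Anapc4 (-1.20), Anapc1 (-0.74), Cdc16 (-0.68) and Cdc23 (-0.16) fell, while Anapc5 (0.34) and Anapc7 (0.33) rose.

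In the core of the cullin-RING ligases, 5 of 14 genes rose and 8 fell (median -0.30), with the share that rose near the 36.9% of all genes. The small RING subunits Rnf7 (1.19) and Rbx1 (1.13) and the adaptor Elob (1.12) rose, while the cullins Cul5 (-2.69), Cul3 (-1.45), Cul4b (-1.41), Cul2 (-1.33) and Cul1 (-1.02) fell and Cul9 rose (0.22). Ube2m, the E2 that loads NEDD8 onto cullins, thus moved with the RING subunits and against these cullins. Rbx1 is listed at 327 bases, Elob at 589, Cul5 at 3205 and Cul3 at 4687, and the part of the trend with gene length in these values was not tested.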
